A study of Arabidopsis thaliana with 9 samples.

Results

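The salicylic acid and immune response genes described here are 35 loci of Arabidopsis thaliana, chosen by locus ID from the 33602 loci of the deposited expression table. They cover the synthesis and breakdown of salicylic acid, the pipecolic acid pathway, the EDS1 and PAD4 module, the NPR and TGA proteins, WRKY transcription factors and the pathogenesis-related (PR) output genes. The study sequenced poly(A) RNA of young rosette leaves from Col-0 plants, 8 weeks old, grown in short days and harvested once light of 125 µE m-2 s-1 had been on for 2 h. There were 3 genotypes with 3 biological replicates each, and leaves of 3 plants were pooled for each replicate. The wild type was compared with the mutant 2cpab, in which the 2-Cys peroxiredoxins A and B of the chloroplast are missing, and with ntrc-2cpab, which lacks NTRC as well. 2-Cys peroxiredoxins remove hydrogen peroxide in the chloroplast, and NTRC is the NADPH-dependent thioredoxin reductase that keeps them reduced. The labels name no alleles and no independent lines, so effects of the mutations and of other differences between the lines cannot be told apart.

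Salicylic acid is the plant hormone of defence against pathogens that feed on living tissue. It is made from chorismate, mostly through isochorismate formed in the chloroplast, and is sensed by the NPR proteins, which act with TGA factors on the promoters of defence genes. EDS1 and its partners, together with N-hydroxypipecolic acid, drive this synthesis after an attack, and in the leaf the PR genes are the usual readout of the hormone.

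The mutated genes were low in the samples labelled as mutant. 2CPA was at 259 to 325 in the wild type and at 3.43 to 4.85 in the 6 mutant samples, 2CPB at 53.0 to 63.4 against 8.88 to 10.8. NTRC was at 14.7 to 18.3 in ntrc-2cpab and at 60.9 to 80.2 in the 6 other samples. These abundances were calculated back from the deposited log2 values, and the number of reads behind them is unknown. Leaf mesophyll markers were abundant in every sample (3 genes, summed abundance 23788 to 30289 in the wild type and 22459 to 24046 in the mutants). Guard cell markers (3 genes) summed to 20.2 to 23.6 in the wild type and 14.3 to 19.7 in the mutants, and phloem markers (3 genes) to 62.6 to 64.3 and 47.4 to 57.5. Xylem markers (2 genes) summed to 6.98 to 10.6 and trichome markers (2 genes) to 10.1 to 12.6 over all samples. Floral markers were listed at 0 except for a sum of 0.0519 in wild type replicate 2, and the senescence marker SAG12 was listed at 0 in all 9 samples. No marker gene passed the test in any comparison.

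The immune genes differed first of all between the wild type replicates. Wild type replicate 1 had the lowest abundance of the 3 in 25 of the 31 members that were abundant enough to be tested (a mean of at least 1 over the 9 samples), which is 80.6% against 40.6% of all 16384 genes tested. Wild type replicate 2 was the highest of the 3 in 27 of 31, or 87.1% against 32% of all genes. On the log2(abundance + 1) scale the median member was 1.04 higher in replicate 2 than in replicate 1, where the median of all genes was 0.010 higher. Replicate 3 lay between them, with a median 0.27 above replicate 1 and 0.65 below replicate 2. Single samples have no replicate check, so these are descriptions without a test. In bulk leaf RNA, fewer cells of a type and less RNA per cell cannot be told apart.

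Set beside the mutants, replicates 1 and 3 of the wild type were low and replicate 2 was not. Replicate 1 was below all 6 mutant samples in 27 of 31 members (87.1%, all genes 29.1%), and replicate 3 in 21 (67.7%, all genes 18.6%). Both were below all 6 in 20 of 31, which is 64.5% against 13.2%. Replicate 2 lay within the range of the mutants in 18 members, above it in 11 (35.5%, all genes 20.5%) and below it in 2 (6.45%, all genes 20.8%). Its share within the range, 58.1%, was near the 58.7% of all genes. The median SD of a member on the log2 scale was 0.54 among wild type samples, 0.18 among 2cpab samples and 0.28 among those of ntrc-2cpab, where all genes had 0.12, 0.11 and 0.12. Of the 31 members, 23 had their largest SD in the wild type, as did 39.8% of all genes.

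**Figure D1:**
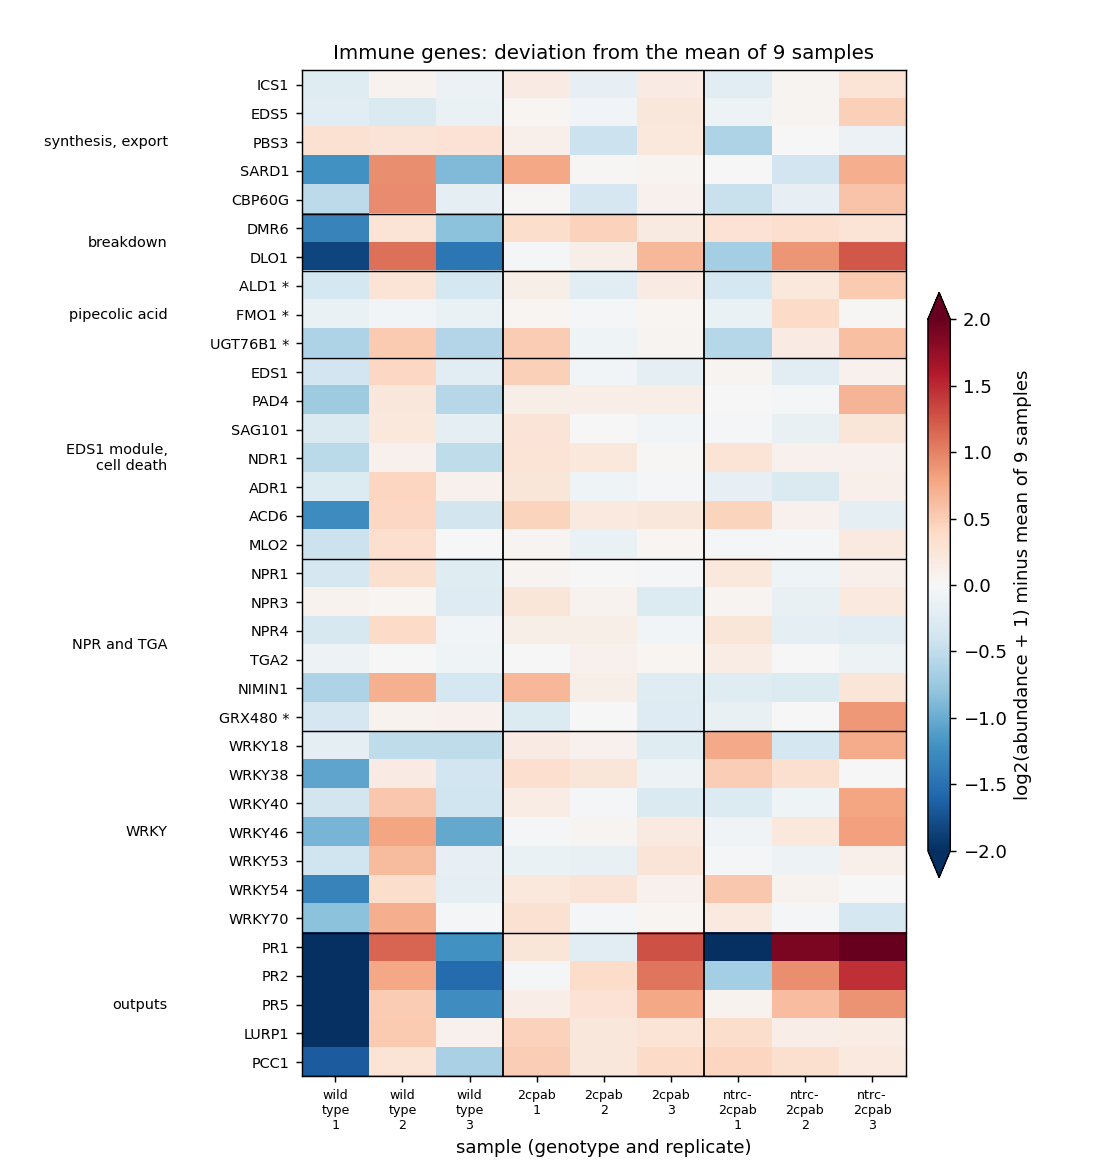
Deviation of each of the 35 members from its mean over the 9 samples, in log2(abundance + 1), with samples in columns, members in rows grouped by role, and an asterisk at the 4 members too low to be tested. The column of wild type replicate 1 is blue in most rows, that of replicate 2 is red in most, and within the first column PR1, PR2, PR5, LURP1 and DLO1 show the deepest blue.

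Wild type replicate 1 stood apart from the other wild type samples in further properties, not all of which followed this order. The ribosomal RNA locus AT2G01020 was at 338 in replicate 1, at 161 in replicate 3 and at 72.9 in replicate 2, and between 74.2 and 102 in the mutants. Plastid-encoded loci took 55.9% of the summed abundance in replicate 1, 51.8% in replicate 2, 51.7% in replicate 3 and 46.8 to 51.3% in the mutants. The summed mesophyll markers were 23788 in replicate 1, 30289 in replicate 2 and 28546 in replicate 3. They were 22459 to 24046 in the mutants, a range that holds the value of replicate 1. Their part in the order of the immune genes was not tested. After scaling to an equal sum over nuclear loci, replicate 1 was still the lowest in 22 of 31 members, which is 71% against 22.9% of all genes. The median difference between replicates 2 and 1 was then 0.94 for the members and -0.096 for all genes.

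Taken as a group, the 5 output genes had the largest median difference between wild type replicates 2 and 1, 2.71 on the log2 scale. PR1 (AT2G14610), a secreted PR protein and the classical marker of salicylic acid signalling, was at 0.259 in wild type replicate 1, 24.4 in replicate 2 and 3.90 in replicate 3. Across the mutants PR1 read 12.4, 8.67 and 26.5 in 2cpab replicates 1 to 3 and 1.61, 40.6 and 49.6 in those of ntrc-2cpab. Replicate 2 of the wild type was 94 times replicate 1, and the low sample of ntrc-2cpab lay below every 2cpab sample, so that all 3 genotypes overlapped. PR2 (AT3G57260), a beta-glucanase, stood at 4.79, 49.0 and 9.14 in wild type leaves, 27.4, 36.8 and 60.4 in 2cpab leaves and 17.3, 54.9 and 79.6 in leaves of ntrc-2cpab. PR5 (AT1G75040), a thaumatin-like protein, gave 10.7, 68.7 and 19.7 in wild type leaves, 52.8, 58.6 and 82.5 in 2cpab leaves and 50.05, 74.1 and 90.2 in leaves of ntrc-2cpab. In both genes wild type replicates 1 and 3 were below every mutant sample and replicate 2 was among them.

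LURP1 and PCC1 were even across the mutants. LURP1 (AT2G14560), which is induced by an oomycete pathogen and needed for full defence against it, was at 11, 78.0 and 57.1 in the wild type. It was at 74.9, 63.6 and 65.3 in 2cpab leaves and 69.4, 59.3 and 59.7 in leaves of ntrc-2cpab. Wild type replicate 1 stood far below the rest, replicate 3 just below the mutants, and replicate 2 was the highest of all 9 samples. PCC1 (AT3G22231), a small membrane protein gene controlled by pathogens and the circadian clock, was at 159, 610 and 320 in wild type leaves, 706, 589 and 656 in 2cpab leaves and 676, 632 and 575 in leaves of ntrc-2cpab. The coefficient of variation over the 6 mutant samples was 9.12% for LURP1 and 7.93% for PCC1, against 81.8% for PR1, 50.1% for PR2 and 24.4% for PR5. Members outside the outputs were as even, such as NDR1 (7.84%), NPR1 (8.04%) and MLO2 (8.17%). PCC1 has a near copy, AT3G22235, with 99.4% identity over 478 bases, and reads may have been shared between them.

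**Figure D2:**
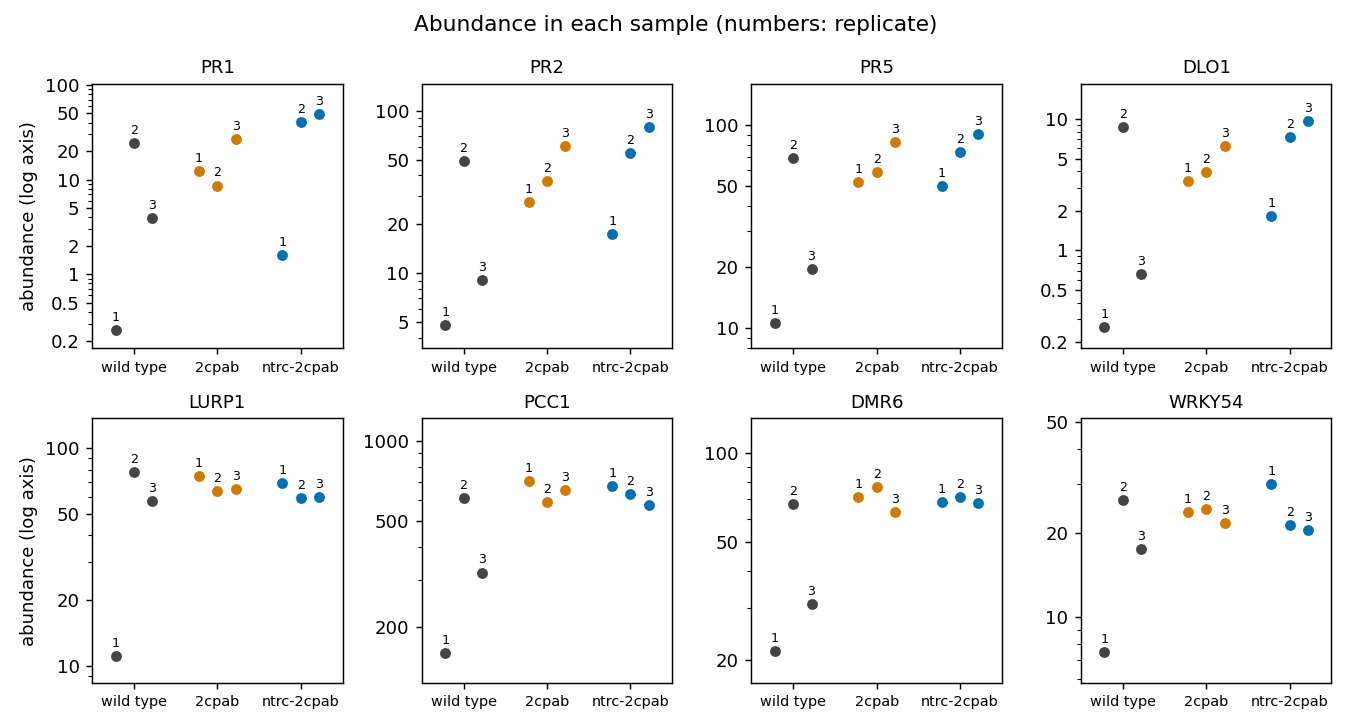
Abundance on a log axis of 8 members in each of the 9 samples, with 1 point per sample, the replicate number above it and the genotype on the x axis. PR1, PR2 and DLO1 are low in wild type replicates 1 and 3 and in ntrc-2cpab replicate 1, while LURP1, PCC1 and DMR6 are level across the 6 mutant samples.

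Promoters were read from the reference genome to show what LURP1, PCC1 and the activator SARD1 carry. A W-box core (TTGAC, bound by WRKY factors) and a TGA core (TGACG, bound by TGA factors) were searched for on both strands in the 250 bases before each annotated gene start of RefSeq build TAIR10.1. The 3 below were picked after their values were seen, LURP1 and PCC1 as outputs that were even across the mutants, and SARD1 as the member with the most matches. Each is written on the strand of its gene, 5′ to 3′, with matches in capitals (GTCAA and CGTCA are the same cores on the other strand).
LURP1, chr2:6213367-6213616, plus strand: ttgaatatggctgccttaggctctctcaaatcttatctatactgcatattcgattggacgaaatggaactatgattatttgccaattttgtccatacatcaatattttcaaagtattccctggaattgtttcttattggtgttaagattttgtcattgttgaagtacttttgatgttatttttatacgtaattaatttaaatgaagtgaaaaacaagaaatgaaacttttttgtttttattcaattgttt
PCC1, chr3:7846834-7847083, minus strand: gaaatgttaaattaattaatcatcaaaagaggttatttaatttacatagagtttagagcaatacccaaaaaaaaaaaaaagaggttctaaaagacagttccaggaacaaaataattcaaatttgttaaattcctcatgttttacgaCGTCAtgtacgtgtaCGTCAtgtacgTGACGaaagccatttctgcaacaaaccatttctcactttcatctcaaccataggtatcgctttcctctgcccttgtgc
SARD1, chr1:27749249-27749498, minus strand: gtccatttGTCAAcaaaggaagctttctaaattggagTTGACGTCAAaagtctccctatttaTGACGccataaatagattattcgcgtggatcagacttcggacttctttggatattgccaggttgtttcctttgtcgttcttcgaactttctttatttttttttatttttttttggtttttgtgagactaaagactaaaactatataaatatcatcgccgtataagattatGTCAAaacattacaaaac
The window of LURP1 held neither core, that of PCC1 3 TGACG, and that of SARD1 4 TTGAC and 3 TGACG, some of which overlap (4 overlapping pairs). Over all members, TTGAC was found in 15 of 35 windows (42.9%), against 44.9% of 27443 promoters of the same length. TGACG was found in 8 of 35 (22.9%), against 18.6%. A match is only a run of letters, and the absence of one speaks for these 250 bases alone.

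Among the genes of salicylic acid synthesis, the activators SARD1 and CBP60G varied in the wild type (log2 SD 1.15 and 0.77) more than the enzyme gene ICS1 (0.16). SARD1 (AT1G73805), a transcription factor that switches on ICS1, stood at 1.65, 10.7 and 2.32 in wild type leaves, 9.50, 5.24 and 5.42 in 2cpab leaves and 5.14, 3.71 and 9.19 in leaves of ntrc-2cpab. CBP60G (AT5G26920), its calmodulin-binding relative, was at 2.41, 8.44 and 3.34 in wild type leaves, 4.01, 2.89 and 4.23 in 2cpab leaves and 2.61, 3.40 and 6.30 in leaves of ntrc-2cpab. Wild type replicate 2 was the highest of the 9 samples for both activators. ICS1 (AT1G74710), the isochorismate synthase of the chloroplast, ran only from 4.59 in wild type replicate 1 to 7.05 in ntrc-2cpab replicate 3. Its wild type values, 4.59, 5.96 and 5.13, overlapped those of 2cpab, 6.45, 4.94 and 6.44, and of ntrc-2cpab, 4.70, 5.90 and 7.05. EDS5 (AT4G39030), the exporter of isochorismate from the chloroplast, was at 1.89 to 2.25 in the wild type and at 2.32 to 3.96 in the mutants, with no overlap. PBS3 (AT5G13320), which joins isochorismate to glutamate, went the other way, at 4.57, 4.37 and 4.46 in wild type leaves, 3.80, 2.32 and 4.18 in 2cpab leaves and 1.91, 3.53 and 3.16 in leaves of ntrc-2cpab. The 3 wild type samples of PBS3 were close together and above every mutant sample.

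Both salicylic acid hydroxylases were lowest in wild type replicate 1. DMR6 (AT5G24530) was at 21.3, 67.3 and 31 in wild type leaves, 71.3, 76.9 and 63.3 in 2cpab leaves and 68.3, 70.8 and 67.6 in leaves of ntrc-2cpab. Its coefficient of variation over the mutants, 6.50%, was the lowest of all 31 tested members. DLO1 (AT4G10500) was at 0.260, 8.66 and 0.661 in wild type leaves, 3.39, 3.93 and 6.19 in 2cpab leaves and 1.82, 7.34 and 9.68 in leaves of ntrc-2cpab. As with PR2 and PR5, wild type replicates 1 and 3 of DLO1 lay below all mutants, and replicate 1 was the lowest of ntrc-2cpab.

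The members of the pipecolic acid pathway were near the bottom of the table and were not tested. ALD1 (AT2G13810), the aminotransferase of its first step, was listed at 0 in wild type replicates 1 and 3 and in ntrc-2cpab replicate 1, and at 0.534 in wild type replicate 2. In the other mutant samples ALD1 was between 0.0955 and 0.828. FMO1 (AT1G19250), which makes N-hydroxypipecolic acid, was listed at 0 in the same 3 samples and did not pass 0.430 elsewhere. UGT76B1 (AT3G11340), a glucosyltransferase that inactivates N-hydroxypipecolic acid and salicylic acid, was at 0.0710, 1.36 and 0.0921 in wild type leaves, 1.33, 0.541 and 0.691 in 2cpab leaves and 0.105, 0.842 and 1.48 in leaves of ntrc-2cpab. All 3 genes were thus lowest in the samples in which PR1 was lowest, at levels where a single sample's value carries little weight.

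In the EDS1 module and its neighbours, wild type replicate 1 was the lowest and replicate 2 the highest of the wild type samples in all 7 members. EDS1 (AT3G48090), the lipase-like hub of the module, was at 11.4, 20.7 and 12.9 in wild type leaves, 21.6, 14.7 and 13.3 in 2cpab leaves and 15.9, 13.0 and 16.2 in leaves of ntrc-2cpab. PAD4 (AT3G52430), its partner in basal immunity, was at 3.50, 7.64 and 4 in wild type leaves, 7, 7.11 and 7.13 in 2cpab leaves and 6.45, 6.24 and 10.9 in leaves of ntrc-2cpab. The 3 values of PAD4 in 2cpab hardly differed, and wild type replicates 1 and 3 were below all mutants. SAG101, the partner of EDS1 in cell death, ranged from 2.84 to 4.64 over the 9 samples and ADR1, a helper receptor, from 2.59 to 4.90. NDR1 (AT3G20600), a membrane protein needed by a class of immune receptors, was at 7.68, 12.3 and 7.87 in wild type leaves, 14.2, 13.5 and 11.8 in 2cpab leaves and 14.1, 12.3 and 12.4 in leaves of ntrc-2cpab. ACD6, a membrane protein that promotes salicylic acid signalling, was at 78.2, 251 and 147 in the wild type and between 167 and 259 in the mutants. MLO2, a membrane protein that powdery mildew depends on, ranged from 12.9 in wild type replicate 1 to 22.6 in replicate 2, with the mutants between 16.0 and 20.4. NDR1 has a near copy, AT3G20590 (90.7% identity over 567 bases), and MLO2 overlaps a gene on the other strand.

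Among the receptors of the hormone and their partners, the wild type SD on the log2 scale ran from 0.048 for TGA2 to 0.70 for NIMIN1, and the median difference between wild type replicates 2 and 1 was 0.65. NPR1 (AT1G64280), the salicylic acid receptor and coactivator of the PR genes, was at 7.95, 13.1 and 8.55 in wild type leaves, 10.8, 10.2 and 10.1 in 2cpab leaves and 12.1, 9.69 and 11.2 in leaves of ntrc-2cpab. NPR3 and NPR4, receptors that restrain the same genes, ranged from 4 to 6.16 and from 7.12 to 12.2. TGA2, a bZIP factor that binds NPR proteins, ranged only from 3.99 to 4.94. NIMIN1 (AT1G02450), which binds NPR1 and limits PR1, was the widest of the group, at 2.92, 8.82 and 3.72 in wild type leaves, 8.58, 5.56 and 4.08 in 2cpab leaves and 4.09, 3.98 and 6.12 in leaves of ntrc-2cpab. GRX480, a glutaredoxin that binds TGA factors, was at most 1.81 and was not tested. Wild type replicate 1 was the lowest of the wild type in 4 of the 5 tested members, NPR3 being the exception.

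Of the 7 WRKY factors, 6 were highest in wild type replicate 2 among the wild type samples. WRKY70 (AT3G56400), which promotes salicylic acid responses, was at 29.2, 87.4 and 51.8 in wild type leaves, 65.0, 50.9 and 53.7 in 2cpab leaves and 60.1, 51.4 and 40.7 in leaves of ntrc-2cpab. WRKY54 (AT2G40750), its close relative, was at 7.47, 26.3 and 17.6 in wild type leaves, 23.8, 24.5 and 21.7 in 2cpab leaves and 30.1, 21.5 and 20.5 in leaves of ntrc-2cpab. WRKY46 (AT2G46400), which acts with them in basal defence, was at 1.99, 8.83 and 1.79 in wild type leaves, 4.56, 4.89 and 5.44 in 2cpab leaves and 4.41, 5.58 and 9.09 in leaves of ntrc-2cpab. Wild type replicate 1 was below all mutants in these 3 genes, and replicate 3 was so in WRKY54 and WRKY46 but within their range in WRKY70. WRKY53, a regulator of leaf senescence, was at 7.81 in wild type replicate 2 and between 3.29 and 5.79 elsewhere. WRKY38, which limits basal defence, was at 0.374 in wild type replicate 1 and reached 3 in ntrc-2cpab replicate 1. WRKY40, a partner of WRKY18, ranged from 1.72 to 5.16. WRKY18 differed from the rest, with wild type values of 12.6, 9.73 and 9.81, 2cpab values of 16.2, 15.3 and 12.0, and ntrc-2cpab values of 25, 11.1 and 24.7. Its highest wild type sample was replicate 1.

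In ntrc-2cpab, replicate 1 was low for some of the immune genes and not for others. The mean of replicates 2 and 3 exceeded replicate 1 by 4.14 on the log2(abundance + 1) scale for PR1, by 1.87 for PR2, by 1.74 for DLO1 and by 0.70 for PR5. The difference was 0.02 for DMR6, and replicate 1 was instead the higher one for LURP1 (-0.22), PCC1 (-0.17), WRKY54 (-0.50) and ACD6 (-0.49). The median member differed by 0.066, and the median of all genes by -0.0080. PR1, PR2, DLO1 and PR5 were also low in wild type replicates 1 and 3. PCC1 and DMR6 were likewise low in both of these wild type samples, and LURP1 in wild type replicate 1. None of PCC1, DMR6 and LURP1 was low in ntrc-2cpab replicate 1. Replicate 1 of ntrc-2cpab was the lowest of the 6 mutant samples in 9 of 31 members (29%), against 15.5% of all genes. Replicate 2 of ntrc-2cpab was so equally often, in 9 of 31 (29%, all genes 12.2%), so this count does not set replicate 1 apart. The rRNA locus of ntrc-2cpab replicate 1, at 96.5, was within the range of the other mutant samples. Its summed mesophyll markers, at 24046, were the highest of the 6. The part of both in these differences was not tested.

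**Figure D3:**
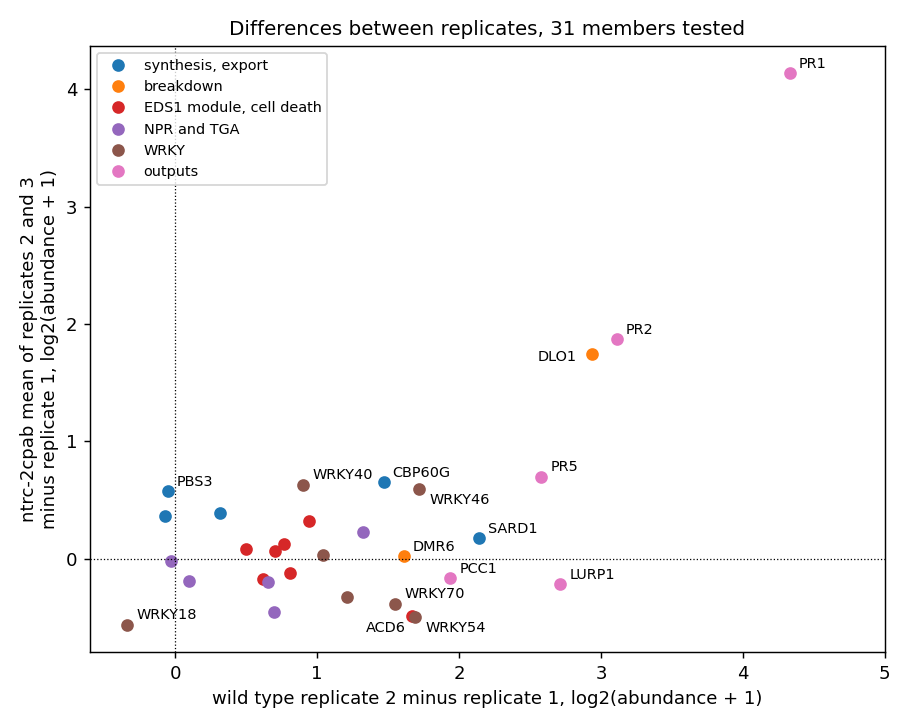
Differences between replicates for the 31 tested members, with wild type replicate 2 minus replicate 1 on the x axis and the mean of ntrc-2cpab replicates 2 and 3 minus replicate 1 on the y axis, both in log2(abundance + 1), coloured by role. PR1, PR2 and DLO1 lie far out on both axes, while LURP1, PCC1, DMR6 and SARD1 lie far out on the x axis and near 0 on the y axis.

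The first comparison set 2cpab, the line without both 2-Cys peroxiredoxins, against wild type leaves. No member passed the test: 0 of 31 were called by limma with Benjamini-Hochberg adjustment over all genes, where 0.134% of all genes were called (22, of which 11 higher and 11 lower). Means were higher in 2cpab for 27 of 31 members (26 after quantile normalization, 25 with equal nuclear sums), against 50% of all genes, and the median log2 fold change was 0.29, against 6.4e-05. That median was 0.11 without wild type replicate 1, 0.52 without replicate 2 and 0.15 without replicate 3. PR1 had a log2 fold change of 1.5 ± 1.25 (SE), PR2 of 1.5 ± 0.770 and PR5 of 1.33 ± 0.539 (limma, Benjamini-Hochberg adjusted p = 0.575, 0.354 and 0.247). DMR6 differed by 0.96 ± 0.320 (95% interval 0.24 to 1.68, limma adjusted p = 0.179) and PCC1 by 1.04 ± 0.376 (adjusted p = 0.204). Fold changes close to 0 were found for ICS1 (0.15, 95% interval -0.17 to 0.48), NPR1 (0.10, -0.25 to 0.45) and EDS1 (0.15, -0.36 to 0.65).

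An unadjusted p under 0.05 was reached in this comparison by 4 of 31 members, PR5, DMR6, NDR1 and PCC1, beside 17.3% of all genes. The samples did not overlap for EDS5 and TGA2, both higher in 2cpab (2 of 31, all genes 11%), and for PBS3, lower in 2cpab (1 of 31, all genes 11.6%). The values depended on single wild type samples. Without replicate 1, the log2 fold change was 0.45 for PR1, 0.84 for PR2, 0.76 for PR5, 0.55 for PCC1 and 0.02 for LURP1, which was 0.85 with all samples. Without replicate 2, 116 genes were called (0.708%) and 4 members were among them, all higher in 2cpab: DMR6 with a log2 fold change of 1.41, PR5 of 2.05, NDR1 of 0.68 and PCC1 of 1.52 (limma adjusted p = 0.00795, 0.0272, 0.0272 and 0.0342). That fit left out the highest wild type sample of 27 of 31 members, so larger differences follow from the choice and the calls are no support. Without replicate 1 or 3, 0 members were called, among 6 and 12 genes.

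For ntrc-2cpab against the wild type, which adds the loss of NTRC, the members again gave no call, while many other genes did. Of 31 members 0 were called by limma with Benjamini-Hochberg adjustment, against 3.94% of all genes (645, of which 427 higher and 218 lower). Means were higher in ntrc-2cpab for 24 of 31 members (50.4% of all genes), with a median log2 fold change of 0.36 against 0.0018. That median was 0.092 without wild type replicate 1 and 0.19 without ntrc-2cpab replicate 3. The largest differences were those of PR1 (1.71 ± 1.25 SE), PR2 (1.6 ± 0.770) and PR5 (1.46 ± 0.539), with limma adjusted p = 0.436, 0.236 and 0.141. DLO1 followed with 1.21 ± 0.729 (adjusted p = 0.340, limma), PCC1 with 0.99 ± 0.376 (0.147) and DMR6 with 0.94 ± 0.320 (0.119). PBS3 was the member furthest below 0, at -0.52 ± 0.192 (95% interval -0.95 to -0.09, limma adjusted p = 0.138). The lowest adjusted p of any member was 0.115, for NDR1 (log2 fold change 0.46).

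Here 9 of 31 members had an unadjusted p under 0.05 (EDS5, PBS3, DMR6, PAD4, NDR1, WRKY18, WRKY38, PR5 and PCC1), beside 24.4% of all genes. Samples did not overlap for EDS5, DMR6 and NDR1, higher in ntrc-2cpab (3 of 31, all genes 14.3%), and for PBS3, lower (1 of 31, all genes 13.9%). Without wild type replicate 1, the log2 fold change was 0.66 for PR1, 0.95 for PR2, 0.89 for PR5, 0.65 for DLO1 and 0.50 for PCC1, and no member was called by limma among 49 genes that were. Without wild type replicate 2, 9 members passed the threshold, all higher in ntrc-2cpab, among 761 genes called (4.64%). They were DMR6 with a log2 fold change of 1.39, PR5 of 2.18, NDR1 of 0.67, PCC1 of 1.47, WRKY46 of 1.30, PAD4 of 0.86, WRKY38 of 0.99, PR2 of 2.51 and DLO1 of 2.12 (limma adjusted p from 0.00687 for DMR6 to 0.0460 for DLO1). Here too the sample left out was the highest of the wild type in 27 of 31 members, so these calls are no support. Without wild type replicate 3, 0 members were called, among 392 genes. WRKY18 passed the threshold only without ntrc-2cpab replicate 2 (log2 fold change 1.15, limma adjusted p = 0.0328), when 1.22% of all genes were called. Both comparisons use the same wild type samples, so that their likeness is not a result of its own.

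**Figure D4:**
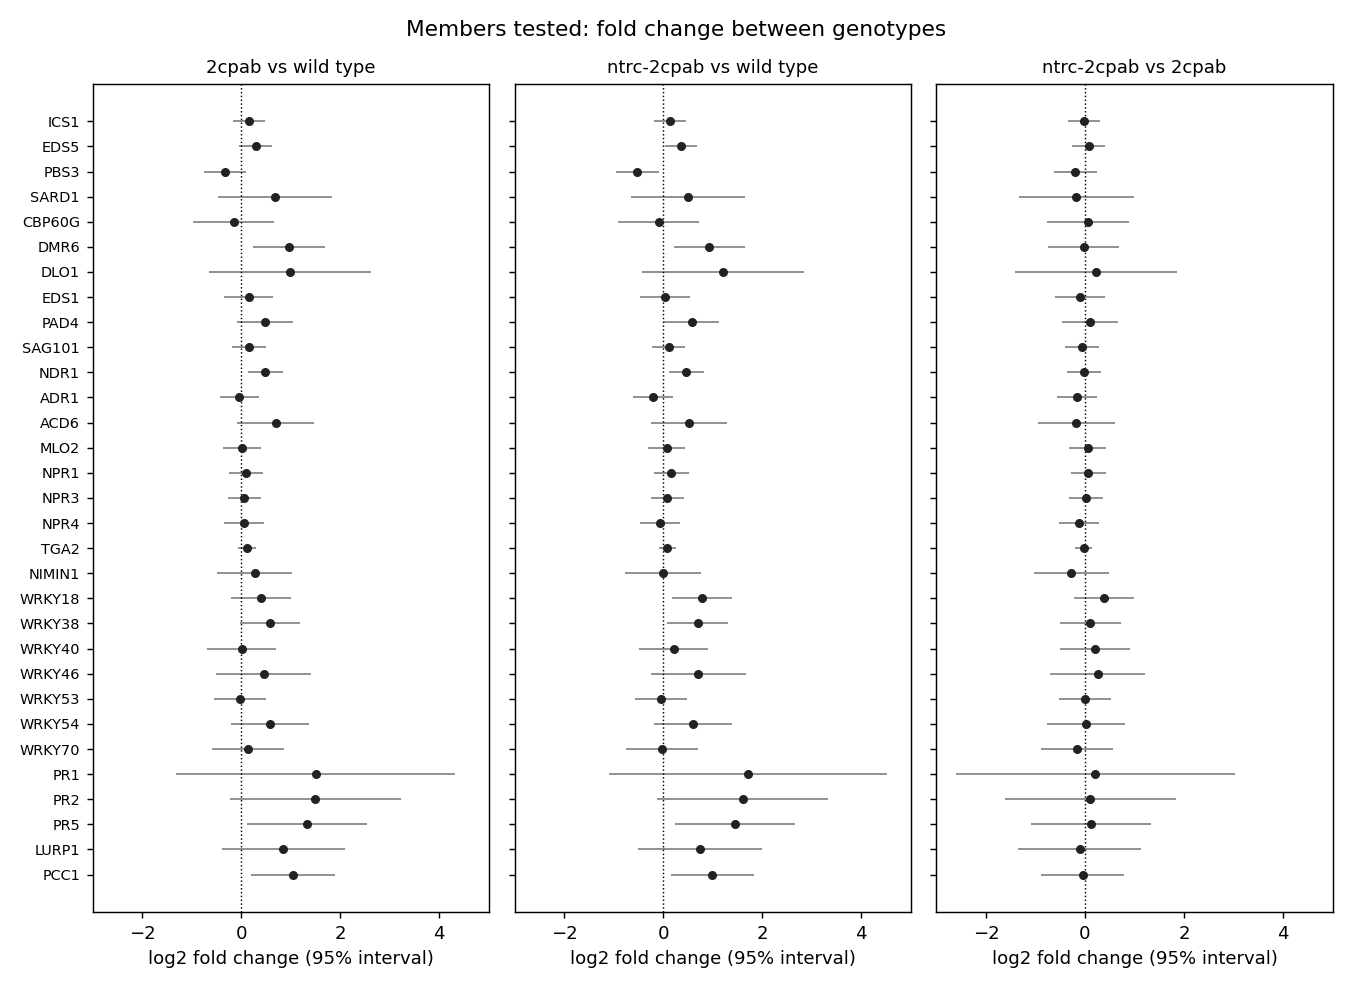
Log2 fold change of each of the 31 tested members with its unadjusted 95% interval, from limma on log2(abundance + 1), in 3 panels, the first for 2cpab and the second for ntrc-2cpab, each relative to wild type, and the last for ntrc-2cpab relative to 2cpab. Most points of the first and second panels lie right of 0 with PR1, PR2 and PR5 furthest, PBS3 lies left of it, and the points of the last panel lie close to 0.

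Between the mutants, which differ by NTRC, no immune gene was told apart. Of 31 members 0 were called (limma with Benjamini-Hochberg adjustment), where 0.0061% of all genes were, and 0 had an unadjusted p under 0.05, against 4.32% of all genes. Means were higher in ntrc-2cpab for 15 of 31 (all genes 52.6%), and the median log2 fold change was -0.0069, against 0.0077 for all genes. No member had samples that did not overlap, where 5.37% of all genes were higher and 4.53% lower without overlap. These values do not show that the mutants are alike. The 95% interval of PR1 ran from -2.60 to 3.02, that of DLO1 from -1.41 to 1.87 and that of DMR6 from -0.75 to 0.69. The fit pooled the residual variance of each gene over all 9 samples, so wild type spread entered these intervals and the unadjusted p. DMR6 had a log2 SD of 0.14 among 2cpab samples and 0.035 among those of ntrc-2cpab, but 0.82 among wild type samples. Its interval was thus widened by the wild type, and its mutant samples ran only from 63.3 to 76.9. PR1 instead had an SD of 2.39 in ntrc-2cpab, near its 2.17 in wild type leaves.

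Further genes of salicylic acid and of defence more widely were counted from lists by role. None of them was called in any comparison (limma with Benjamini-Hochberg adjustment). Among other defence outputs, all 8 tested genes of 12 had higher means in both mutants than in the wild type, with a median log2 fold change of 0.86 in 2cpab and 0.62 in ntrc-2cpab. PNP-A (AT2G18660), a small secreted natriuretic peptide-like protein, was at 2.78, 32.9 and 9.75 in wild type leaves, 31.7, 27.9 and 36.9 in 2cpab leaves and 25.4, 31.6 and 37.3 in leaves of ntrc-2cpab. AED1 (AT5G10760), a secreted aspartyl protease induced through EDS1, was at 8.03, 41.6 and 10.2 in wild type leaves, 38.9, 41.7 and 44.1 in 2cpab leaves and 29.3, 50.04 and 48.3 in leaves of ntrc-2cpab. Both had the wild type order of the PR genes, and wild type replicate 1 was the lowest of the wild type in 7 of the 8 (all genes 40.6%). Replicate 2 was the highest in 6 of the 8 (all genes 32%). PDF1.2A of this list was instead highest in replicate 3, at 10.3, 15.0 and 59.9 in wild type replicates 1 to 3. The log2 fold changes of PNP-A and AED1 in ntrc-2cpab were 1.53 and 1.38 (limma adjusted p = 0.167 and 0.127). NUDT6, a nudix hydrolase, and PR4, a chitin-binding PR protein, followed with 0.82 and 0.65.

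The remaining lists had median log2 fold changes nearer to 0. In other genes of salicylic acid synthesis and conjugation (9 tested of 11), the median log2 fold change was -0.055 in 2cpab and -0.29 in ntrc-2cpab, and wild type replicate 1 was the lowest in 2 of 9. SARD4 (AT5G52810), a reductase of pipecolic acid synthesis, was at 3.83, 14.4 and 6.68 in the wild type and between 10.5 and 15.1 in the mutants (log2 fold change 0.69 in ntrc-2cpab). ICS2, the second isochorismate synthase gene, differed by -0.45 (limma adjusted p = 0.0715), PAL4, a phenylalanine ammonia-lyase, by -0.40 and UGT74F2, a salicylic acid glucosyltransferase, by 0.37. Other NPR partners (7 tested of 9) had medians of 0.092 and 0.033, with NIMIN2 at 0.29, TGA3 at 0.27, NIMIN3 at 0.15 and TGA4 at -0.09 in ntrc-2cpab. Intracellular receptors and negative regulators (13 tested of 15) were higher in 10 in each mutant, with medians of 0.14 and 0.12. Their largest differences in ntrc-2cpab were those of the helper receptor ADR1-L1 (0.46), the bacterial effector receptor RPS2 (0.45), ACD11 (0.29, limma adjusted p = 0.0700) and BON1 (0.26). Pattern receptors and early signalling genes (12 tested of 13) had medians of 0.092 and 0.16, with the receptor kinases SOBIR1 at 0.42, EFR at 0.34 and CERK1 at 0.27 and the kinase MPK3 at 0.22. Other WRKY factors (10 tested of 12) had medians of -0.11 and -0.069, with WRKY25 at 0.76, WRKY51 at 0.49, WRKY60 at -0.48 and WRKY11 at -0.44 in ntrc-2cpab. Wild type replicate 1 was the lowest of the wild type in 2 of 7 NPR partners and 5 of 13 intracellular receptors and negative regulators. It was so in 6 of 12 pattern receptor and early signalling genes and 5 of 10 WRKY factors (all genes 40.6%). In the same order of lists, replicate 2 was the highest in 3, 11, 7 and 7 (all genes 32%). In synthesis and conjugation it was the highest in 2 of 9.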

How the data were processed

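Poly(A) RNA sequencing was done on 9 leaf samples. A table of log2 values for loci and samples was deposited by the authors. The tools FastQC, HISAT2 and StringTie and the build TAIR10 are named per the submitters' processing notes; versions, settings and strand use were not given in the sources used here. As read from the values, the deposited log2 numbers are log2(abundance + 1), with a 75th percentile of 2.75 in all samples; FPKM or TPM is not stated. Abundances are the back-calculated values. Depth is unknown, so precision comes from replicate spread alone. The scaling hides changes in total RNA.

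limma 3.58.1 (R 4.3.3) was fitted to the log2 values of all 9 samples (6 residual degrees of freedom, eBayes with trend, two-sided, checked on simulated data). Benjamini-Hochberg adjustment ran over the 16384 genes whose mean abundance was at least 1, and calls were made below an adjusted p of 0.05. Of the members, 31 were tested and 4 (ALD1, FMO1, UGT76B1 and GRX480) were not. Log2 fold changes understate the change of low genes. Members and gene lists were chosen with earlier results of these data known. The members tried one by one under the alternatives were the 10 with the largest SD within genotypes and the hubs of each step. In the other lists, up to 4 genes with the largest difference between ntrc-2cpab and wild type were named. Sequences come from RefSeq TAIR10.1 (35 of 35 members matched), which may differ from the authors' annotation. Near copies (at least 90% identity over 100 bases) were sought with BLAST 2.17.0.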

Additional observations from a re-analysis of the deposited data

How the results depend on the processing

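The count of members called was 0 in every comparison under each alternative that kept all 9 samples, the replicate block included. Leaving out 1 sample gave 0 to 4 members for 2cpab against wild type and 0 to 9 for ntrc-2cpab against wild type, the highest counts coming without wild type replicate 2, and 0 in each fit between the mutants. Over all genes, 22 were called in 2cpab against wild type (50% of them higher). This became 7 without the filter, 41 with equal nuclear sums (63.4% higher), 28 with quantile normalization (60.7% higher), 164 with array weights, 6 with 2 genotypes only, 9 with the replicate block, and 4 to 116 with 1 sample left out. For ntrc-2cpab against wild type, 645 became 232 without the filter, 50 with 2 genotypes only, 357 with the replicate block, and 49 to 761 with 1 sample left out; it was 49 without wild type replicate 1 and 56 without ntrc-2cpab replicate 1. Between the mutants, 1 became 5 without the filter, 2 with 2 genotypes only, and 1 to 2 with 1 sample left out. The cause was not tested.

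Of 30 fold changes followed one by one against the wild type, 22 kept their sign in all alternatives, and 8 changed it only when 1 sample was left out. In 2cpab these were EDS1 (-0.049 to 0.39), NPR1 (-0.026 to 0.30), WRKY70 (-0.26 to 0.52) and CBP60G (-0.46 to 0.28). In ntrc-2cpab they were EDS1 (-0.12 to 0.29), LURP1 (-0.090 to 1.27), CBP60G (-0.39 to 0.34) and WRKY70 (-0.42 to 0.36). Single fold changes between the mutants were not followed. Wild type replicate 1 was the lowest of the wild type in 22 of 31 members with equal nuclear sums, 25 of 31 after quantile normalization and 29 of 35 without the filter. Deviations of samples with the same replicate number correlated at -0.16 to 0.21. The labels do not say whether a replicate number marks a shared batch, and these correlations cannot settle it. The replicate block changed no member's call but lowered the counts of all genes called against the wild type. With 3 samples a group and unknown depth, differences within the wild type spread could not be detected. Reads of ICS1, WRKY40 and WRKY53 may be shared with near copies, and EDS5, SARD1, NPR1, WRKY40 and WRKY53 overlap genes on the other strand.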
